A study of Mus musculus with 18 samples.

Results

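The smooth and cardiac contractile genes described here were 10 genes of the actin thin filament and its motor: Actc1, Acta2, Tagln, Actn1, Tpm1, Cnn1, Cnn2, Myl7, Tnnt2 and Myl9. They were chosen by name, with earlier results of these data known, so their counts beside shares over all probe sets are descriptive. Every probe set of the array annotated to exactly 1 gene symbol, with that symbol among the 10, was taken. They are 10 of 18193 genes with such a probe set, and hold 19 of 34945 probe sets. Probe sets that were dim in all groups were not tested, which left 13 of the 19, for 9 of the 10 genes. Tnnt2 had no tested probe set.

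RNA came from embryoid bodies, aggregates of mouse embryonic stem cells that differentiate in suspension. All groups came from 1 inducible line of strain 129P2, A2lox-Flag Msgn1, in which doxycycline switches on a Flag-tagged Msgn1, a transcription factor gene of the presomitic mesoderm. Doxycycline (1 µg/ml) was added on day 2 in the induced groups and left out in the uninduced ones, and embryoid bodies of both kinds were taken after 12, 24 and 48 h. Each of these 6 groups has 3 arrays. Cells without the inducible Msgn1 were not given doxycycline in any group, so an effect of the drug and one of the factor cannot be told apart. The stem cells had been kept on mitomycin-treated mouse embryonic fibroblasts, which themselves express several contractile genes. The labels call the arrays of a group biological replicates without saying that they came from separate cultures, so the p-values measure the spread between these samples, which may be technical.

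In muscle, force comes from myosin motors that pull on actin filaments. Alpha-actinin anchors and crosslinks the filaments, tropomyosin lies along them, and the troponin complex of striated muscle or the calponins of smooth muscle act on them. Many of these genes are switched on before any cell contracts, and Acta2, Tagln and the calponins are also used by fibroblasts and early mesenchyme as part of their stress fibers. Myl7, the atrial regulatory myosin light chain, and Tnnt2, cardiac troponin T, are early markers of the heart lineage. Serum response factor, with its myocardin family partners, drives many contractile genes through a short element known as the CArG box.

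The CArG box was looked for on both strands of the 250 bases before the start site of each member in RefSeq's promoter table (build GRCm38.p6), which held 10 windows for 9 of the members and none for Tagln. An exact match was found in 4 of the 10 windows, those of Actc1, Myl7, Myl9 and Cnn2, and in 1.47% of all 32851 windows of the same length. The windows of these 4 genes and that of Acta2 are shown because they include 3 of the genes called higher in induced arrays at 48 h and 2 that did not pass the test. Each runs 5′ to 3′ on the strand of its gene. Capitals mark the exact box, or, in Acta2, stretches that match it with 1 mismatch.
Actc1: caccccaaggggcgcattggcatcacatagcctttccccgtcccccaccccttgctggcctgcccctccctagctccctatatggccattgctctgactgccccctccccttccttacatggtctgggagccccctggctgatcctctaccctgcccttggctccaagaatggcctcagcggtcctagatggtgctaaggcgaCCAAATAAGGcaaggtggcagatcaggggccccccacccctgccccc
Myl7: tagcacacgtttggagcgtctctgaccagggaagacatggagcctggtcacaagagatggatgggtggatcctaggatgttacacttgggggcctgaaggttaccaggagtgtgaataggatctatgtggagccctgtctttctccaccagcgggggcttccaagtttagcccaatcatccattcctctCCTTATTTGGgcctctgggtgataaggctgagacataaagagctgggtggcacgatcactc
Acta2: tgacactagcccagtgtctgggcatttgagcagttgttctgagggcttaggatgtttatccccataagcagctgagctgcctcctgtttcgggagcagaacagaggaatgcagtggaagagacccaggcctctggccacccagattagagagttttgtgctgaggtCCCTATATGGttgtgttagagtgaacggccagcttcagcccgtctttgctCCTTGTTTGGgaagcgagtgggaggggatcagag
Myl9: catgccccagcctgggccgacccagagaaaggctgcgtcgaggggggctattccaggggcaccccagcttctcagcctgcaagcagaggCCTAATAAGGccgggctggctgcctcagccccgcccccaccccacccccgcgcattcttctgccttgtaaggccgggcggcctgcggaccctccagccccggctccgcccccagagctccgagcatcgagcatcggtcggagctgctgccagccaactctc
Cnn2: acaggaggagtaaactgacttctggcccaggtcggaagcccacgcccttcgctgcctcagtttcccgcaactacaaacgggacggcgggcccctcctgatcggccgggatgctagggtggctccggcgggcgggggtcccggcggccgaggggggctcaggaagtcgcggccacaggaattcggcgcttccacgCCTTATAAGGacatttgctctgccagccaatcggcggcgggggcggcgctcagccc
These windows lie at chr2:114052876-114053125 (minus strand) for Actc1, chr11:5898783-5899032 (minus strand) for Myl7, chr19:34255374-34255623 (minus strand) for Acta2, chr2:156775214-156775463 (plus strand) for Myl9 and chr10:79988350-79988599 (plus strand) for Cnn2. The box read CCAAATAAGG in Actc1, from 47 to 38 bases before the start site. It read CCTTATTTGG in Myl7 (61 to 52 bases before), CCTTATAAGG in Cnn2 (56 to 47 bases before) and CCTAATAAGG in Myl9 (161 to 152 bases before). Windows of 5 members (Acta2, Actc1, Myl9, Tnnt2 and Tpm1) held a stretch with exactly 1 mismatch, as did 17.5% of all windows. CATTCC, the core of the element bound by TEAD factors, was in 4 of the 10 windows and in 12.6% of all. CANNTG, the E-box that basic helix-loop-helix factors bind, was in 8 of the 10 and in 66.2% of all. A match of letters is a description of these windows and not a measured binding site.

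Deposited signals were linear, scaled per array by the authors, and ran from 0.0187 to 16866. Array medians lay between 18.8 and 22.1, and correlations between replicates of log2 values between 0.990 and 0.994. Both 24 h arrays numbered 3 lay farther from their group than the others. Msgn1 checked the labels: its signal was 44.5 to 76.8 in the 9 induced arrays and 4.69 to 25.2 in the 9 uninduced ones. The defining pluripotency gene Pou5f1 had a mean signal of at least 3149 in every group. Each change below is a difference between 2 group means on the log2(signal + 32) scale, with its standard error from limma, and a fold is that difference without the logarithm. Adjusted p-values are limma's, by the Benjamini-Hochberg method over 26037 probe sets, and a probe set was called at an adjusted p under 0.05. Levels are not compared between probe sets, since each has its own brightness. In bulk RNA, fewer cells of a type and less RNA per cell cannot be told apart, which holds for every change below.

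Actc1, Tagln, Acta2, Myl7 and Actn1 were higher in induced than in uninduced arrays, and were so at different times. For Acta2 this difference came with a fall over time in the uninduced arrays, without a called change in the induced ones. Actn1 was the one member called at 12 h, Actc1, Tagln and Actn1 were called at 24 h, and Acta2 and Myl7 joined them at 48 h. Called probe sets were all higher in the induced arrays. At 12 h 1 of 13 probe sets was called, where 0.557% of all probe sets tested were called higher. In either direction 169 of all were called then, and 88 to 104 without uninduced replicate 1 or 2 or induced replicate 2 or 3 of 12 h. At 24 h 3 of 13 were called (1.85% of all were called higher), and at 48 h 5 of 13 (4.95% of all). The median change over the 13 probe sets was 0.01 at 12 h, 0.16 at 24 h and 0.29 at 48 h, against 0.00 over all probe sets tested at each time. All 3 induced arrays lay above all 3 uninduced ones for 2 of the 13 at 12 h, 6 at 24 h and 9 at 48 h, against 8.51%, 9.06% and 13.5% of all probe sets. At 48 h the induced arrays of 1 probe set, 1452415_at of Actn1, all lay below the uninduced ones, as did those of 12.1% of all.

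**Figure D1:**
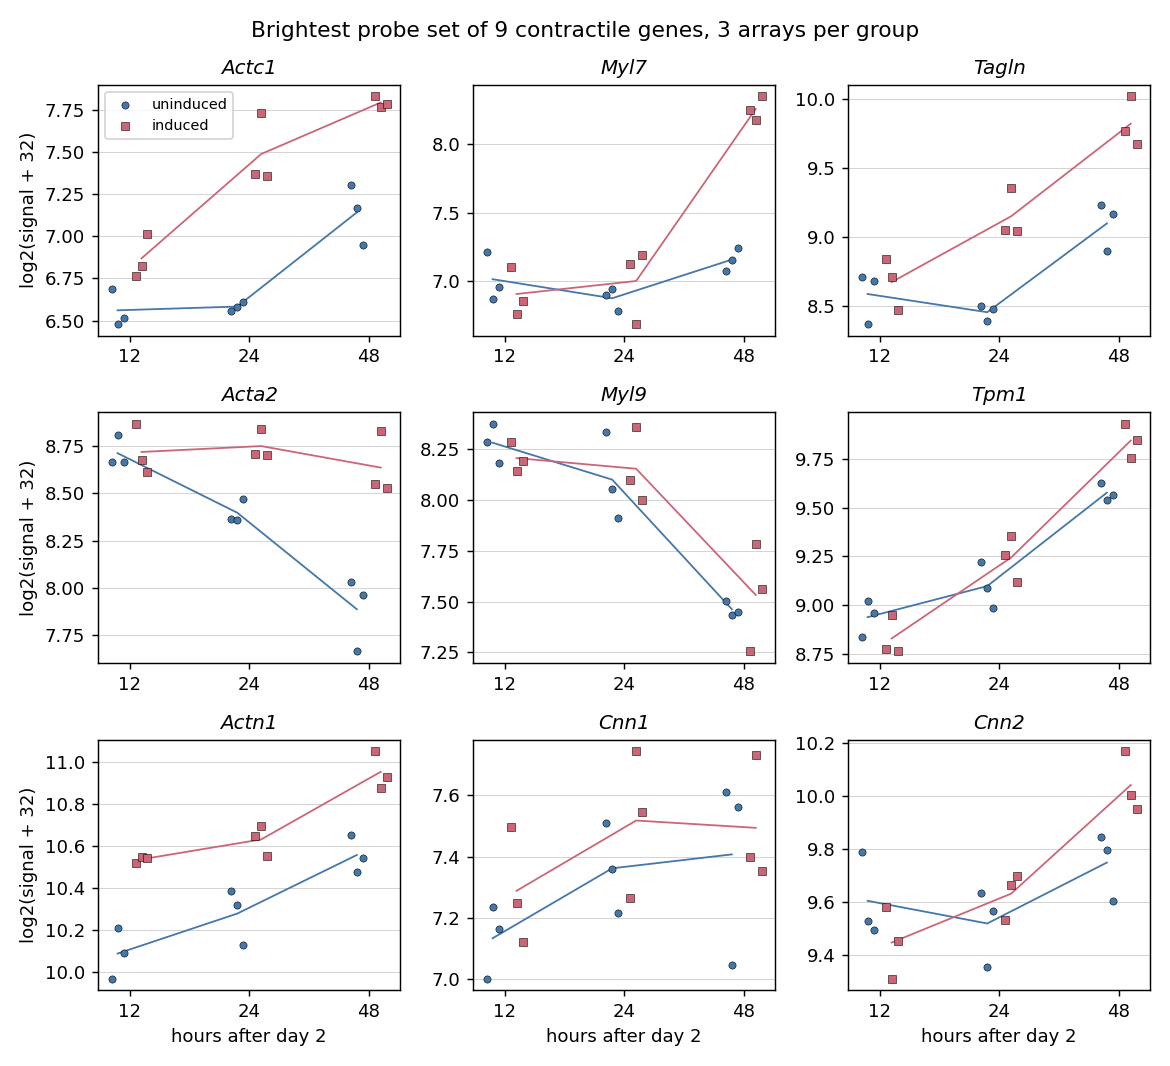
Values of log2(signal + 32) in every array, for the brightest probe set of the 9 tested genes, against hours after doxycycline was or was not added on day 2; circles are uninduced arrays, squares induced arrays, and lines join group means. The vertical axes differ and do not start at 0. The induced arrays of Actc1 lie above the uninduced ones at all 3 times, those of Myl7 only at 48 h, and Acta2 and Myl9 fall over time in uninduced arrays.

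Actc1, the alpha-actin of the heart that is also made early in skeletal muscle, had its induced arrays above the uninduced ones at every time, as the brightest probe set of Actn1 did. At 12 h its signal was 71.1, 57.2 and 59.4 in the uninduced arrays and 76.9, 81.4 and 97.4 in the induced ones. At 24 h it was 62.0, 63.9 and 65.8 uninduced and 133, 181 and 132 induced. At 48 h it was 126, 112 and 91.5 uninduced and 196, 186 and 189 induced. At 24 h the lowest induced array also lay above every uninduced array of 48 h. The change was 0.31 ± 0.114 at 12 h (adjusted p = 0.327, not called), 0.91 ± 0.114 at 24 h (1.87-fold, adjusted p = 4.14e-05) and 0.65 ± 0.114 at 48 h (1.57-fold, adjusted p = 4.31e-04). The 24 h effect did not differ beyond the threshold from that at 12 h (difference 0.60 ± 0.161, adjusted p = 0.288) or that at 48 h (-0.25 ± 0.161 for 48 h minus 24 h, adjusted p = 0.606). Without induction Actc1 rose too, by 0.58 ± 0.114 from 12 to 48 h (adjusted p = 5.05e-04). Nearly all of that lay between 24 and 48 h, where the step was 0.56 ± 0.114, after a step of 0.02 ± 0.114 from 12 to 24 h. In induced arrays the step from 12 to 24 h was 0.62 ± 0.114 (adjusted p = 0.00129).

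Acta2, the alpha-actin of vascular smooth muscle, moved in the opposite direction to Actc1 over time in uninduced arrays. Its brightest probe set, 1416454_s_at, has the suffix of sets that can also match related transcripts. At 12 h the signal was 373, 415 and 374 uninduced and 435, 376 and 359 induced, and the groups overlapped. At 24 h it was 297, 297 and 322 uninduced and 386, 425 and 384 induced. At 48 h it was 230.0, 171 and 218 uninduced and 342, 422 and 337 induced. The uninduced arrays of 48 h lay below all arrays of 12 h, while the induced arrays of the 2 times overlapped. The uninduced fall from 12 to 48 h was -0.82 ± 0.103 (adjusted p = 2.58e-06), and the induced change was -0.08 ± 0.103 (95% interval -0.30 to 0.13, adjusted p = 0.580). The induction effect was 0.01 ± 0.103 at 12 h, 0.35 ± 0.103 at 24 h (adjusted p = 0.0799, with the arrays of both groups apart) and 0.75 ± 0.103 at 48 h (1.68-fold, adjusted p = 2.66e-05). The effect at 48 h was larger than that at 12 h by 0.74 ± 0.145 (adjusted p = 0.00374).

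Tagln, which encodes the actin-binding protein transgelin (SM22 alpha) of smooth muscle and early mesenchyme, followed Actc1 closely. At 12 h its signal was 387, 299 and 379 uninduced and 426, 387 and 323 induced, with overlap. At 24 h it was 329.8, 304 and 324 uninduced and 499.5, 623 and 496 induced, and at 48 h 571, 445 and 542 uninduced and 841, 1007 and 786 induced. At both later times every induced array lay above every uninduced one. The change was 0.09 ± 0.120 at 12 h, 0.70 ± 0.120 at 24 h (1.62-fold, adjusted p = 0.00167) and 0.72 ± 0.120 at 48 h (1.65-fold, adjusted p = 2.65e-04). The effect at 48 h exceeded that at 12 h by 0.64 ± 0.170 (adjusted p = 0.0382), a call that was lost without any one of 8 arrays, with adjusted p up to 0.122 without induced 12 h replicate 3. From 12 to 48 h Tagln rose by 0.51 ± 0.120 without induction (adjusted p = 0.00270) and by 1.15 ± 0.120 with it (adjusted p = 1.37e-07).

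The calponins, actin-binding proteins that restrain myosin in smooth muscle, gave no called induction effect. Cnn1, the smooth muscle calponin, had signals of 96.1 to 119 uninduced and 107 to 149 induced at 12 h, 117 to 150.3 and 122 to 182 at 24 h, and 100.3 to 164 and 131 to 181 at 48 h. Its groups overlapped at every time, and its change was 0.15 ± 0.151, 0.16 ± 0.151 and 0.09 ± 0.151, with a 95% interval at 48 h from -0.23 to 0.40. Cnn2, the calponin found in many non-muscle cells, had signals of 887, 858 and 746 uninduced and 1119.5, 995 and 956 induced at 48 h. Those arrays were apart, with a change of 0.29 ± 0.0982 that did not pass (adjusted p = 0.0696). At 12 h Cnn2 stood at -0.16 ± 0.0982 and at 24 h at 0.11 ± 0.0982. In induced arrays Cnn2 rose by 0.59 ± 0.0982 from 12 to 48 h (adjusted p = 5.63e-05), and in uninduced arrays its change was 0.14 ± 0.0982 (adjusted p = 0.313). The difference between these 2 changes, 0.45, was not called.

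Tpm1, a tropomyosin gene with many splice forms, rose over time in both conditions more clearly than it differed between them. The signal of its brightest probe set, 1423721_at, was 424, 488 and 465 uninduced and 406, 463 and 402 induced at 12 h. At 24 h it was 564, 512 and 475 uninduced and 580.5, 623 and 524 induced. At 48 h it was 757, 712 and 725 uninduced and 944, 830.2 and 890.1 induced, where the arrays were apart. From 12 to 48 h it rose by 0.64 ± 0.0846 without induction (adjusted p = 5.68e-06) and by 1.01 ± 0.0846 with it (adjusted p = 4.32e-09). The induction effect at 48 h was 0.27 ± 0.0846 (adjusted p = 0.0520), which missed the threshold. It passed under 6 planned settings other than the ones that leave out an array, with adjusted p from 0.0157 to 0.0468. The other tested probe sets moved the same way: 1456623_at had an effect of 0.31 ± 0.105 at 48 h (adjusted p = 0.0727) with the arrays apart, and 1423049_a_at, whose suffix marks matches to several transcripts of the gene, 0.28 ± 0.242 (adjusted p = 0.593). All 3 rose over the uninduced course, by 0.61 to 0.88, though the call of 1423049_a_at was lost without uninduced 12 h replicate 1 (0.72, adjusted p = 0.0567).

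Tnnt2, the tropomyosin-binding subunit of cardiac troponin, was not measured above the limit for testing. Its 3 probe sets had group means between 0.335 and 9.29, and the highest single array stood at 16.2. For comparison, the limit on group means was a signal of 13.3. One of the 3, 1418726_a_at, stood at 2.98 to 5.26 in the induced 48 h arrays and at 0.135 to 0.649 in the uninduced ones, values so low that no fold is given. Of the other dim probe sets, 2 belonged to Acta2 and 1 to Tpm1, and the highest group mean among all 6 was 12.5.

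The myosin light chains split. Myl7, the atrial regulatory light chain, had a signal of 117, 85.1 and 92.7 uninduced and 106, 76.3 and 84.0 induced at 12 h. At 24 h it was 87.3, 91.3 and 78.4 uninduced and 108, 71.1 and 115 induced, again overlapping. At 48 h it was 103, 111 and 119.8 uninduced and 272, 257 and 295 induced, so every induced array was more than double every uninduced one. The change was -0.11 ± 0.127 at 12 h, 0.13 ± 0.127 at 24 h (adjusted p = 0.766) and 1.10 ± 0.127 at 48 h (2.14-fold, adjusted p = 2.86e-06), the largest of the 13 probe sets. The effect at 48 h exceeded that at 12 h by 1.21 ± 0.179 (adjusted p = 2.56e-04) and that at 24 h by 0.97 ± 0.179 (adjusted p = 0.00375). Uninduced Myl7 had no called change, with 0.14 ± 0.127 from 12 to 48 h (95% interval -0.12 to 0.41), while the induced rise over the same time was 1.35 ± 0.127 (adjusted p = 2.68e-08).

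Myl9, the regulatory light chain of smooth muscle and non-muscle myosin, fell with time in both conditions. Its signal was 281, 300.2 and 259 in uninduced arrays at 12 h and 149, 141 and 143 at 48 h. In induced arrays it was 280.0, 251 and 260.2 at 12 h and 121, 188 and 157 at 48 h. From 12 to 48 h it fell by 0.82 without induction (-0.82 ± 0.124, adjusted p = 3.11e-05) and by 0.67 with it (-0.67 ± 0.124, adjusted p = 1.87e-04). The induction effect was between -0.08 and 0.07 at the 3 times, with overlap at each, and its 95% interval at 48 h ran from -0.19 to 0.33. Myl9 and Acta2 thus shared the uninduced fall, but of the 2 only Acta2 was called higher in induced arrays, and the difference between the 2 genes was not tested. Of 11 tested feeder fibroblast markers, none rose and 2 fell over the uninduced course (median -0.21, against 0.02 over all probe sets). Over the induced course 1 rose and 6 fell (median -0.37, against 0.02). Of all genes, each by its brightest probe set, 14.2% were called lower over the uninduced course and 17.9% over the induced one. Their part in the falls of Myl9 and Acta2 was not tested.

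Actn1, the non-muscle alpha-actinin that crosslinks actin at adhesions and stress fibers, was the one member called at all 3 times, through its brightest probe set 1428585_at. Its signal was 970.3, 1152 and 1058 uninduced and 1435, 1467 and 1461 induced at 12 h. At 24 h it was 1308, 1244 and 1089.7 uninduced and 1572, 1625 and 1471 induced, and at 48 h 1580.5, 1391 and 1460.1 uninduced and 2090.5, 1849.8 and 1919 induced. The induced arrays were above the uninduced ones each time. The change was 0.45 ± 0.0772 (1.36-fold, adjusted p = 0.00362), 0.35 ± 0.0772 (1.28-fold, adjusted p = 0.0135) and 0.40 ± 0.0772 (1.32-fold, adjusted p = 0.00139). The effect at 48 h differed from that at 12 h by -0.05 ± 0.109. The 24 h call was lost without uninduced 24 h replicate 3 (adjusted p = 0.0743) and without induced 24 h replicate 2 (adjusted p = 0.0861).

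The other Actn1 probe sets differed from it. For 1452415_at the signals scattered widely within groups: 228, 149.9 and 259 uninduced and 435, 388 and 204 induced at 12 h, and 215, 223 and 156 uninduced and 142, 118 and 154 induced at 48 h. Its changes were 0.58 ± 0.256, -0.03 ± 0.256 and -0.43 ± 0.256, none of them called, and it fell by 1.09 over the induced course (-1.09 ± 0.256, adjusted p = 0.00199). For 1427385_s_at, which can match related transcripts, the change was 0.13 ± 0.102, 0.16 ± 0.102 and 0.21 ± 0.102 (adjusted p = 0.251 at 48 h), with the arrays apart at 24 and 48 h. The higher signal of Actn1 in induced arrays was therefore called in only 1 of its 3 probe sets.

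**Figure D2:**
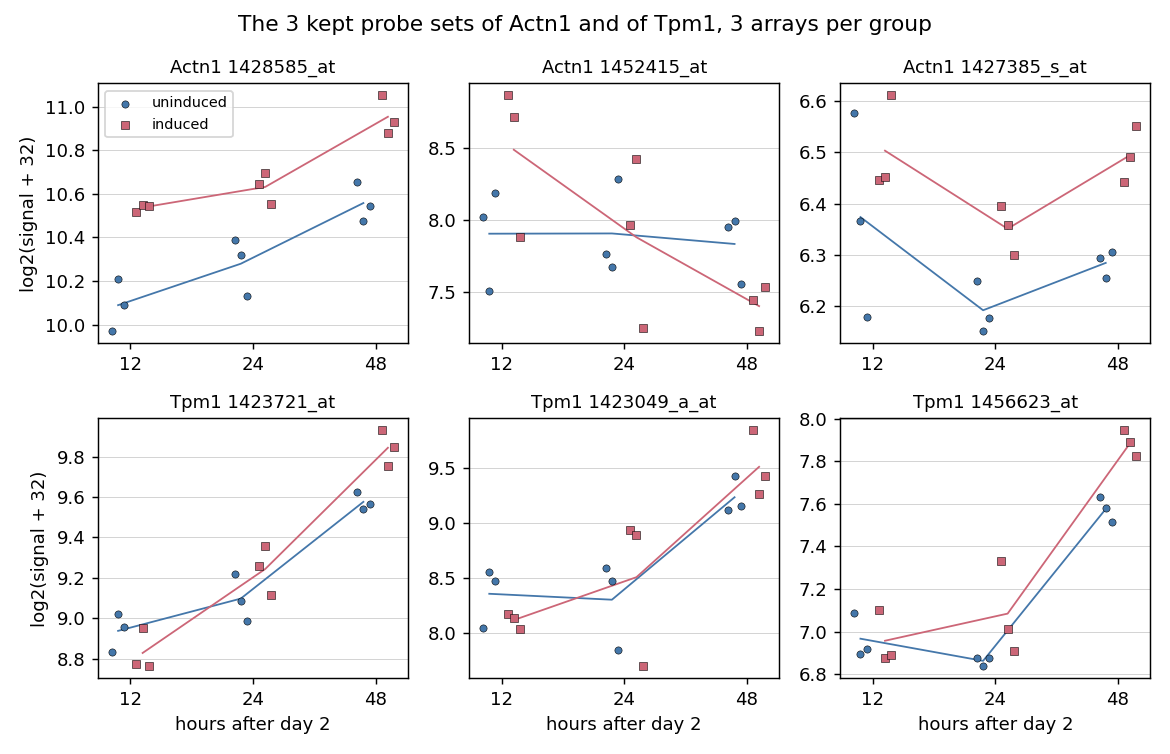
Values of log2(signal + 32) in every array for the 3 tested probe sets of Actn1 (top) and of Tpm1 (bottom), against hours after day 2; circles are uninduced, squares induced, lines join group means, and the axes differ. The Tpm1 probe sets rise together, while 1452415_at of Actn1 falls over the induced course and scatters within groups.

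Over the uninduced course from 12 to 48 h, 6 of 13 probe sets rose and 2 fell, where 15.7% of all rose and 11.4% fell. The probe sets that rose were Actc1, Tagln, the brightest probe set of Actn1 and the 3 of Tpm1, and those that fell were Acta2 and Myl9. No probe set was called between 12 and 24 h without induction, where 2.39% of all were, and 2 had an unadjusted limma p under 0.05. Between 24 and 48 h 6 rose and 2 fell (10.8% and 8.47% of all). Over the induced course 8 rose and 2 fell (19.7% and 14.9% of all). Already between 12 and 24 h 3 induced probe sets rose (6.14% of all): Actc1, Tagln with 0.48 ± 0.120 (adjusted p = 0.0140) and 1423721_at of Tpm1 with 0.42 ± 0.0846 (adjusted p = 0.00307).

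The test of whether the induction effect itself changed gave 3 called probe sets between 12 and 48 h, those of Myl7, Acta2 and Tagln, each larger at 48 h (1.87% of all were called larger). Between 24 and 48 h 1 was called, Myl7 (0.968% of all). Between 12 and 24 h none was called by limma, while 4 had an unadjusted p under 0.05, and 0.0499% of all were called in either direction.

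**Figure D3:**
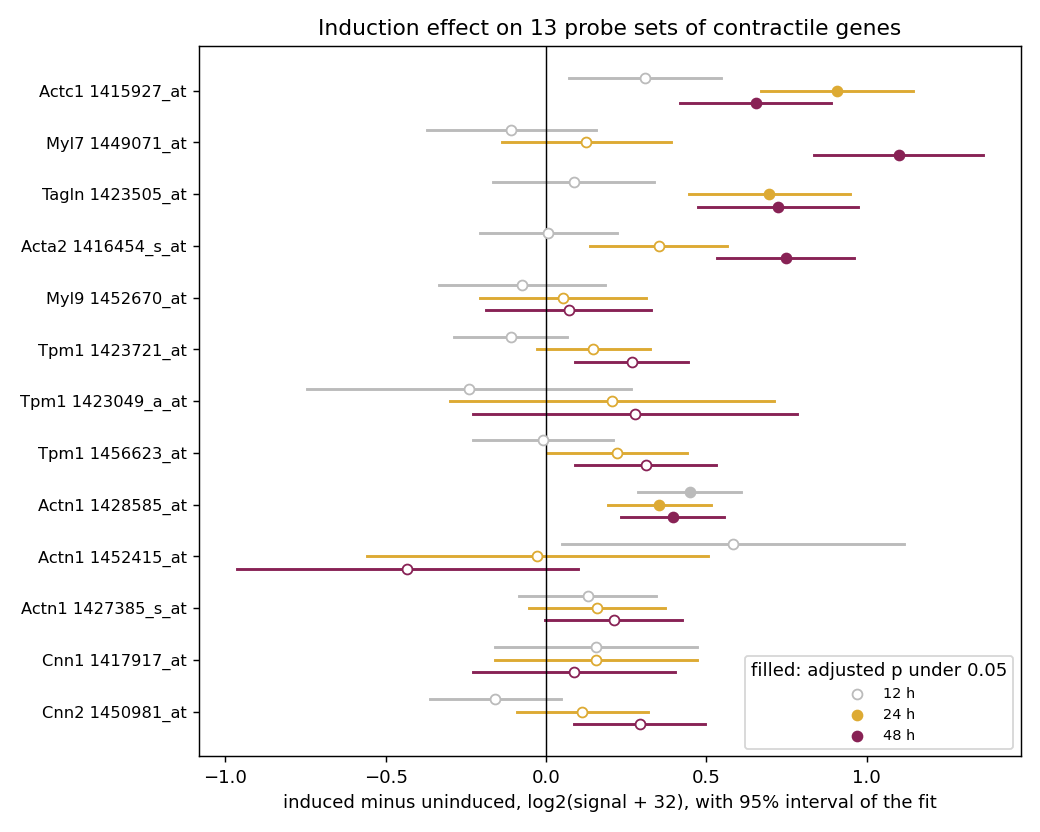
Induced minus uninduced log2(signal + 32) for the 13 tested probe sets at 12 h (gray), 24 h (yellow) and 48 h (purple), with the 95% interval of the fit; filled points passed an adjusted p of 0.05. Myl7 has the largest effect, 1.10 at 48 h, and Actn1 1428585_at is filled at all 3 times.

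Across the 18 arrays, Actc1 and Tagln were the most alike pair of members in log2(signal + 32) (Pearson r = 0.91), and Tpm1 and Myl9 the most opposed (r = -0.81). Acta2 tracked few members, with r of 0.06 to Actc1, 0.05 to Tagln and 0.64 to Myl9. These values describe 18 arrays that share 6 groups, and part of each r is the difference between groups. Outside the members, and with clone and predicted gene names left out, the genes most like Actc1 were Greb1l (r = 0.97), Fgd5 (r = 0.96) and Kirrel (r = 0.95). Those most like Tagln were the mesodermal transcription factor gene Twist1 (r = 0.96), Relt (r = 0.95) and Kirrel (r = 0.94). Those most like Acta2 were Tmsb4x, which encodes the actin monomer-binding thymosin beta 4 (r = 0.94), the amino acid transporter gene Slc7a5 (r = 0.92) and Aldh18a1, an enzyme of proline synthesis (r = 0.91). Within groups the r of these genes lay between 0.20 and 0.63.

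Other genes of the contractile machinery were compared by lists, with the brightest probe set of each gene. The lists, too, were chosen with earlier results of these data known, so their counts are descriptive. Over all genes measured that way, 0.747% were called higher at 12 h, 2.37% at 24 h and 6.21% at 48 h, and 4.9% were called lower at 48 h. Of 20 cardiac sarcomere genes 18 were tested, and none was called by limma with induction at any time, while 2 had an unadjusted p under 0.05 at 12 h, 2 at 24 h and 3 at 48 h. At 48 h Myl4 stood at 0.34 (adjusted p = 0.180) and Tnnc1 at 0.26 (adjusted p = 0.264). The list's median change at 48 h was -0.01. Myh6, the heart's alpha-myosin heavy chain, fell over the uninduced course by 0.80 (-0.80 ± 0.0972, adjusted p = 1.74e-06), from a mean signal of 86.3 to 35.8, and over the induced course to 26.9. Ttn was also called lower over both courses (-0.65 ± 0.124 uninduced and -0.86 ± 0.124 induced). In all, 3 of the 18 were called lower over the uninduced course and 5 over the induced one, against 14.2% and 17.9% of all genes, and none was called higher. Ryr2 and Tnni1 were, like Tnnt2, below the limit in every group. Myl7 and Actc1 were called beside a list of cardiac sarcomere genes in which no gene was called with induction.

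Among 18 tested smooth muscle contraction genes, Cald1, the actin-binding caldesmon gene, was higher in induced arrays at 24 h by 0.39 ± 0.0885 (adjusted p = 0.0178). At 48 h Cald1 was higher by 0.29 ± 0.0885 (adjusted p = 0.0434) and Tpm4, another tropomyosin gene, by 0.33 ± 0.0781 (adjusted p = 0.00848). These were 1 of the 18 at 24 h and 2 at 48 h, against 2.37% and 6.21% of all genes. All 3 calls were lost when 1 array was left out, with adjusted p up to 0.106, 0.179 and 0.0612. The list's median change at 48 h was 0.08. The smooth muscle myosin gene Myh11 and Lmod1 were below the limit in every group. Of 9 tested skeletal muscle genes, Acta1, the skeletal alpha-actin, was called higher at 24 h (0.49 ± 0.123, adjusted p = 0.0342, and 0.230 without induced 24 h replicate 2). At 48 h it was called higher again (0.76 ± 0.123, 1.70-fold, adjusted p = 1.89e-04). No other gene of this list was called with induction, where 2.37% of all genes were called higher at 24 h and 6.21% at 48 h. The list's median change was 0.12 at 24 h and -0.08 at 48 h. Acta1 thus resembled Actc1 in its direction. The coding sequences of the muscle actin genes are near-identical, and signal shared between their probe sets was not tested.

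Among 20 transcription factors and cofactors known to act on contractile genes, none was called by limma at 12 h (2 had an unadjusted p under 0.05), 2 were higher at 24 h and 10 at 48 h, against 2.37% and 6.21% of all genes. At 24 h these were the cardiac and endodermal factor genes Gata4 (0.65 ± 0.122, adjusted p = 0.00359) and Gata6 (0.66 ± 0.131, adjusted p = 0.00556). At 48 h the largest rises were those of Foxf1, a forkhead gene of lateral mesoderm (2.75 ± 0.215), Hand2 (2.60 ± 0.157), Tbx20 (1.61 ± 0.129) and Isl1 (1.48 ± 0.152), regulators of heart progenitors. The mean signal of Hand2 was 16.6 uninduced and 265 induced at 48 h, and that of Foxf1 9.89 and 268. The list's median change at 48 h was 0.52. Serum response factor itself and its partners, named here after their values were seen, were not called between induced and uninduced arrays: at 48 h Srf stood at 0.18, Myocd at 0.33, Mrtfa at 0.05 and Mrtfb at -0.03. Over the induced course from 12 to 48 h Myocd alone of these was called, with a rise of 0.35 ± 0.120 (adjusted p = 0.0288). That call was lost without induced 12 h replicate 3 (adjusted p = 0.124).

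**Figure D4:**
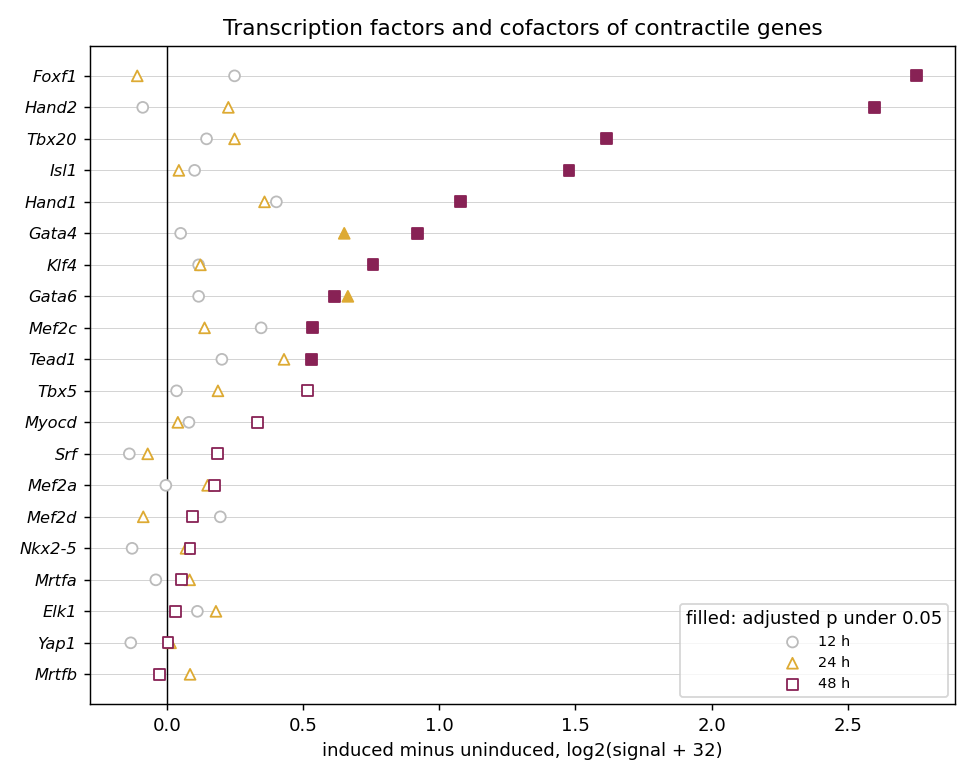
Induced minus uninduced log2(signal + 32) for 20 transcription factors and cofactors of contractile genes at 12 h (circles), 24 h (triangles) and 48 h (squares); filled symbols passed an adjusted p of 0.05. Of the 20 genes, 10 are filled at 48 h, led by Foxf1 at 2.75 and Hand2 at 2.60, while Srf, Mrtfa and Mrtfb lie near 0.

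Of 14 genes that respond to serum response factor or YAP, none was called by limma at 12 h (4 had an unadjusted p under 0.05), 2 were higher at 24 h and 3 at 48 h, against 2.37% and 6.21% of all genes. The list's median change was 0.07 at 24 h and 0.10 at 48 h. At 24 h these were Fhl1, a LIM domain gene (0.54 ± 0.0801, adjusted p = 2.90e-04), and Tgfb1i1, which encodes the focal adhesion protein Hic-5 (0.47 ± 0.117, adjusted p = 0.0323). At 48 h they were Tgfb1i1 (1.05 ± 0.117, adjusted p = 1.93e-06), Ccn1 (0.52 ± 0.152, adjusted p = 0.0329) and Ankrd1 (0.49 ± 0.115, adjusted p = 0.00783). The call of Tgfb1i1 at 24 h and that of Ccn1 were lost when 1 array was left out (adjusted p up to 0.151 and 0.220).

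Markers of other cells moved beside the members. Of 11 tested feeder fibroblast markers, none was called by limma at 12 h (6 had an unadjusted p under 0.05), 2 were higher at 24 h and 4 at 48 h, against 2.37% and 6.21% of all genes. The list's median change was 0.23 at 12 h, 0.03 at 24 h and 0.09 at 48 h, against 0.00 over all probe sets. The calls were led by the collagen gene Col1a2 (0.57 ± 0.129 and 0.84 ± 0.129) and the PDGF receptor gene Pdgfrb (0.45 ± 0.0956 and 0.74 ± 0.0956). Leaving out 1 array ended the calls at 24 h (adjusted p up to 0.0845 and 0.0742), and at 48 h those of Twist2 and Prrx1 (0.161 and 0.254). The summed signal of the 12 listed markers was 847 to 1006 uninduced and 1075 to 1095 induced at 24 h, and 671 to 821 and 949.7 to 1047 at 48 h, without overlap. At 12 h it was 869.7 to 1028 and 986 to 1239. No listed marker was at 0, although Fap had group means of only 2.52 to 8.56. The collagen genes Col1a1 and Col3a1 and the fibroblast genes Dcn, Lum, Postn, Lox and Thy1 were not called between induced and uninduced arrays at any time. Over time some fell: Postn by 0.88 uninduced (-0.88 ± 0.151, adjusted p = 1.33e-04), where 14.2% of all genes were called lower, and Dcn by 0.89 induced (-0.89 ± 0.135, adjusted p = 2.12e-05), where 17.9% were. Pdgfrb rose over the induced course, by 0.69 ± 0.0956 (adjusted p = 6.83e-06). The part of fibroblasts in the induction effects on Actc1, Tagln, Acta2 and Actn1 was not tested. Among 6 endothelial markers, Kdr, the VEGF receptor gene also found on early mesoderm, was higher at 24 h (1.19 ± 0.147) and 48 h (2.39 ± 0.147), and Tek at 48 h (0.82 ± 0.126). No other endothelial marker was called with induction, where 2.37% of all genes were called higher at 24 h and 6.21% at 48 h. The list's median change was 0.01 at 24 h and 0.34 at 48 h. Tek fell over the uninduced course from 12 to 48 h (-0.56 ± 0.126, adjusted p = 0.00203) and was not called over the induced one. In the uninduced course Pecam1 also fell, and Kdr and Cdh5 rose (15.7% of all probe sets rose and 11.4% fell). In the induced course Kdr, Cdh5 and Tie1 rose and Pecam1 fell (19.7% and 14.9% of all). Both calls of Pecam1 and the uninduced one of Cdh5 were lost when 1 array was left out (adjusted p up to 0.188 and 0.0548). Among 6 pluripotency markers, 5 were lower at 48 h, against 4.9% of all genes, and limma called none at 12 or 24 h, where 1 and 4 had an unadjusted p under 0.05. The list's median change at 48 h was -0.45, with Sox2 at -1.06 ± 0.0752. The call of Esrrb was lost when 1 array was left out (adjusted p up to 0.0734).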

How the data were processed

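Per the labels' protocols, 100 ng of total RNA from each of 18 samples was labelled with an Affymetrix 3′ IVT kit that adds biotin. The deposited values are intensity on a linear scale. GCOS was used, per the submitters' processing notes. The algorithm behind the signal was not given in the sources used here, nor was its scaling target. In the deposited intensity the 2% trimmed mean was 150.001 on each array, a scaling made by the authors, and nothing was added to it. Medians of the arrays differed by at most 0.092 in log2 units, and there were 0 pairs of identical arrays. Groups and replicate numbers came from the sample titles.

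Values were transformed to log2(signal + 32). Besides 64 control probe sets, the platform annotation gave 1 gene for 34945 probe sets (34741 matched by Entrez identifier), several for 932 and none for 9160. Those with a group mean of at least 13.3 in some group, the 40th percentile of all signals, were tested (26037). Limma 3.58.1 in R 4.3.3 fitted 1 mean per group over all 18 arrays with an intensity trend in the variance, and 2-sided p-values were adjusted by the Benjamini-Hochberg method over these probe sets. The fit was tested on simulated data. Promoter windows came from RefSeq (GRCm38.p6). Python 3.11.15 with matplotlib 3.10.9 drew the figures.

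All 10 members were described by every probe set with 1 gene, and spoken of by the one with the highest mean. Up to 4 called genes of each list were named by size of change, or 2 where no gene passed. For Actc1, Acta2 and Tagln the 3 other genes with the highest correlation were named, by their brightest tested probe set and without clone or predicted gene names. Members, lists and tests were chosen with earlier results of these data known. Same-numbered arrays deviated together at 24 h (correlations 0.20, 0.12 and 0.44), and not at 12 h (0.012, 0.074 and -0.069) or 48 h (-0.096, -0.031 and 0.12). At 24 h the differently numbered arrays 1 and 2 deviated together as much (0.21 and 0.11). Only the arrays numbered 3 stood apart as a pair, so the numbers do not show a pairing of all arrays. The main fit used no pairing. Other settings tried were quantile normalization, offsets of 16 and 64, no filter and a 60th percentile filter, 1 probe set a gene, a robust variance trend and none, the arrays of a comparison alone, replicate blocks, leaving out each array, and, added after the data were seen, leaving out both 24 h arrays numbered 3.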

Additional observations from a re-analysis of the deposited data

Results flagged for a closer look

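For 3 genes the induction effect differed between times by limma's test of the difference itself. The effect on Acta2 was larger at 48 h than at 12 h by 0.74 ± 0.145 (adjusted p = 0.00374), and that on Tagln by 0.64 ± 0.170 (adjusted p = 0.0382). The effect on Myl7 was larger at 48 h than at 12 h by 1.21 ± 0.179 (adjusted p = 2.56e-04) and than at 24 h by 0.97 ± 0.179 (adjusted p = 0.00375). The calls for Acta2 and Myl7 held under every other setting tried. The call for Tagln was lost with no filter (adjusted p = 0.0667), with variances without a trend (adjusted p = 0.0668) and without any one of 8 arrays (adjusted p up to 0.122).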

How the results depend on the processing

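Of 2470 values of single probe sets under 30 other settings, 2403 kept their direction and their side of the threshold, 23 gained a call, 15 lost one and 29 changed sign. The number of called member probe sets left its main value by over 1.5 times only with a replicate block within each time, where 8 were called at 48 h (5 without it) and 5 for the change of effect from 12 to 48 h (3 without it). The numbers did not pair arrays at 12 or 48 h, so a block there rests on a shared number alone. At 24 h only the arrays numbered 3 stood apart as a pair, and the block changed no member's call. Calls gained under some settings included those at 48 h of Tpm1 1423721_at (adjusted p = 0.0382 with quantile normalization and 0.0468 with an offset of 64), Cnn2 (0.0454 with quantile normalization) and Tpm1 1456623_at (0.0412 with a replicate block). The change of effect from 12 to 48 h gained calls for Tpm1 1423721_at (0.0314 with a block within time, 0.0450 without both 24 h arrays numbered 3), Cnn2 (0.0232 with that block) and Actn1 1452415_at (-1.32, adjusted p = 0.0379 without induced 12 h replicate 3). Cnn1 was called over the uninduced course without uninduced 48 h replicate 2 (0.45, adjusted p = 0.0321). The 24 h call of Actn1 was lost with the arrays of the comparison alone (adjusted p = 0.106) and without both 24 h arrays numbered 3 (0.0594). Without those 2 arrays the 24 h change of Myl7 was -0.016 and that of Actn1 1452415_at 0.48, both uncalled, as in the full data. Leaving out single arrays turned the sign only of uncalled values: at 12 h Acta2 (-0.068 to 0.059), Tagln (-0.023 to 0.19) and Tpm1 1456623_at (-0.082 to 0.051); at 24 h Actn1 1452415_at (-0.30 to 0.29), Myl9 (-0.050 to 0.17) and Tpm1 1423049_a_at (-0.025 to 0.61); at 48 h Cnn1 (-0.093 to 0.19) and Myl9 (-0.055 to 0.21). In the change of effect from 12 to 48 h they were Actn1 1427385_s_at (-0.021 to 0.18), Actn1 1428585_at (-0.11 to 0.0077) and Cnn1 (-0.25 to 0.036). Over the uninduced course they were Actn1 1427385_s_at (-0.19 to 0.012) and 1452415_at (-0.27 to 0.069), and over the induced course 1427385_s_at (-0.037 to 0.046). With single arrays left out, 1 member probe set was called at 12 h, 2 to 3 at 24 h and 5 to 6 at 48 h. Over all probe sets, 169 were called at 12 h and 88 to 199 with 1 array left out, and 602 were called at 24 h, 333 to 630 with 1 array left out (391 without uninduced replicate 1 and 333 without induced replicate 2 of 24 h) and 264 with the arrays of the comparison alone. Low signal limits Tnnt2, whose level these arrays did not measure above the limit for testing.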
